A study of Homo sapiens with 6 samples.

Results

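The E proteins TCF3, TCF4 and TCF12 and their inhibitors ID1, ID2, ID3 and ID4 were described in open-chromatin maps of MM.1S cells, 7 of the 20033 protein-coding genes of the annotation. All 7 genes were taken whatever their values, each with the promoters of its coding transcripts (1000 bp on each side of a transcription start site, TSS) and its gene body with 50 kb on each side, here called its window. MM.1S is an established multiple myeloma line, a cancer of plasma cells. The cells were cultured for 72 h with 120 nM CB-6644 (3 libraries) or with the vehicle DMSO (3 libraries), sorted for live cells in both groups, and profiled by Omni-ATAC, in which a transposase cuts accessible DNA. CB-6644 blocks the ATPases RUVBL1 and RUVBL2, which work as a pair within several chromatin remodeling complexes. The comparison asks where accessibility at these genes differed between the groups. All libraries came from 1 cell line, and no label says that the replicates were separate cultures, so p-values measure the spread between these libraries only.

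E proteins are basic helix-loop-helix transcription factors that pair with themselves or with tissue-specific partners and bind DNA at E-boxes, CANNTG. TCF3 encodes E12 and E47, which drive B-cell commitment and immunoglobulin rearrangement, TCF4 encodes E2-2, also known for its role in plasmacytoid dendritic cells, and TCF12 encodes HEB. ID proteins carry the helix-loop-helix but not the basic region that contacts DNA, so an E protein held by an ID protein cannot bind an E-box. ID genes are known targets of BMP and SMAD signalling, and ID2 and ID3 are known regulators of lymphocyte development.

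The deposited data were 6 peak lists of 58563 to 79020 peaks, called library by library, with no read counts. A background recovered from each list stood in for depth and came, in tags per kb, to 5.67, 3.20 and 7.05 for CB-6644 (replicates 1, 2 and 3) against 6.40, 9.08 and 8.09 for DMSO. CB-6644 replicate 2 and DMSO replicate 1 stood apart, with shortest peaks of 65 and 91 bp against 131 to 152 bp in the other 4 libraries, here called the long-fragment libraries. Promoters of all 7 plasma cell markers on the list had a peak in all 6 libraries. MS4A1, CD3D, CD3E, LYZ and GATA1, which mark other blood cells, had none, whereas PAX5, CD14 and HBB had one in all 6.

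Merging overlapping peaks gave 89196 regions, of which 79 lay in the 7 windows (44 in the E protein windows and 35 in the ID windows). Of the 79 regions, 42 were called in all 6 libraries, 27 in 2 to 5 and 10 in 1. The results turn on 3 sets of member regions. The first are introns of TCF12 that had peaks only in DMSO, and the second is an intron of TCF4 that was weaker with CB-6644. The third are 3 regions in the ID1 and ID3 windows that ranked higher with CB-6644. The sequences of all 3 sets are shown first, because they hold the regulatory DNA described. Each is 201 bp of the plus strand of hg38 around the strongest summit, 5′ to 3′. Capitals mark the E-boxes CAGGTG, which reads CACCTG from the other strand and is the form that TCF4 and TCF3 are known to prefer, and the palindrome CAGCTG, bound by many E protein pairs.

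The 3 DMSO-only regions were all in introns of TCF12 on chromosome 15, in the order chr15:56951064-56951264, chr15:57190307-57190507 and chr15:57245276-57245476. The third held 2 CAGCTG E-boxes, and the others held neither form.
TCF12 intron, 5′ part: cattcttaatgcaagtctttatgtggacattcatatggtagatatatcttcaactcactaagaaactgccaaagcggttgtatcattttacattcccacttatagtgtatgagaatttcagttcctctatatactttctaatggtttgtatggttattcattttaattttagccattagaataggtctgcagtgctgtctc
TCF12 intron, middle part: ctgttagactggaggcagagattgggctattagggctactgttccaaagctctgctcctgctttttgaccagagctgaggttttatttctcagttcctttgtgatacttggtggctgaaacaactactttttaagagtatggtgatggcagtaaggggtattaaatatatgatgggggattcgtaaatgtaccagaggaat
TCF12 intron, 3′ part: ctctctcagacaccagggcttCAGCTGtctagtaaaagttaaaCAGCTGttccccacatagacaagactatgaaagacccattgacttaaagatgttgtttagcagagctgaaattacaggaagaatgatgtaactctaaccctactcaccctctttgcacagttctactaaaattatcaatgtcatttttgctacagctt

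The TCF4 intron on chromosome 18, chr18:55236218-55236418, held neither E-box.
TCF4 intron: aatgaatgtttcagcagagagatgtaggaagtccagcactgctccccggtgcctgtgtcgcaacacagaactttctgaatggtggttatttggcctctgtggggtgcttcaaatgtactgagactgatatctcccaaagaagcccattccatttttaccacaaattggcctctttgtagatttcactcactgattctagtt

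The regions that ranked higher with CB-6644 lay upstream of ID1 at chr20:31604281-31604481, downstream of ID1 at chr20:31653637-31653837, and downstream of ID3, in an intron of E2F2, at chr1:23525850-23526050. All 3, which were picked by rank, held at least 1 E-box. Over all 89196 regions CAGGTG was in 27.7% and CAGCTG in 16.7%. The ID1 upstream sequence also held TGACGTCA, the cyclic-AMP response element, noticed after its values were seen. That element was in 0.664% of all 89196 regions, read within 100 bp of the summit, and in 2 of the 79 member regions.
ID1 upstream: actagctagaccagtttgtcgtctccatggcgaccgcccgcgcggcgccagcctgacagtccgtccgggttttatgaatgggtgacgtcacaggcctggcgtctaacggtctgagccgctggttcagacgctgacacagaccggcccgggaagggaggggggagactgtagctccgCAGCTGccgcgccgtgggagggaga
ID1 downstream: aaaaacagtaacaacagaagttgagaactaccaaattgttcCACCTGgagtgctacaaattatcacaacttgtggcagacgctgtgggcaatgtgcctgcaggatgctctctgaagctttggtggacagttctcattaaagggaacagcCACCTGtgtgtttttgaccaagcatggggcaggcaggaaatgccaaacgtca
ID3 downstream: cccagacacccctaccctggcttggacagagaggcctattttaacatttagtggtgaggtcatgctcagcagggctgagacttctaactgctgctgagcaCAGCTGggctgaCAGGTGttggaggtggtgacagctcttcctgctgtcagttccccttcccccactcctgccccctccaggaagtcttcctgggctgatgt

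No region that covered an annotated start of a member passed the test between CB-6644 and DMSO, and 1 region within 1000 bp of a start, at ID1, did (described with ID1). For regions called in all 6 libraries, the strength of a peak is given as a percentile of its −log10 p among the 42089 such regions of that library, 100 being the strongest. The test was limma on normal scores of these ranks, CB-6644 minus DMSO, with Benjamini-Hochberg adjustment over all 42089 regions. A score difference of 1 is 1 standard deviation of the ranks. It called 3.74% of the regions lower and 3.48% higher with CB-6644.

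**Figure D1:**
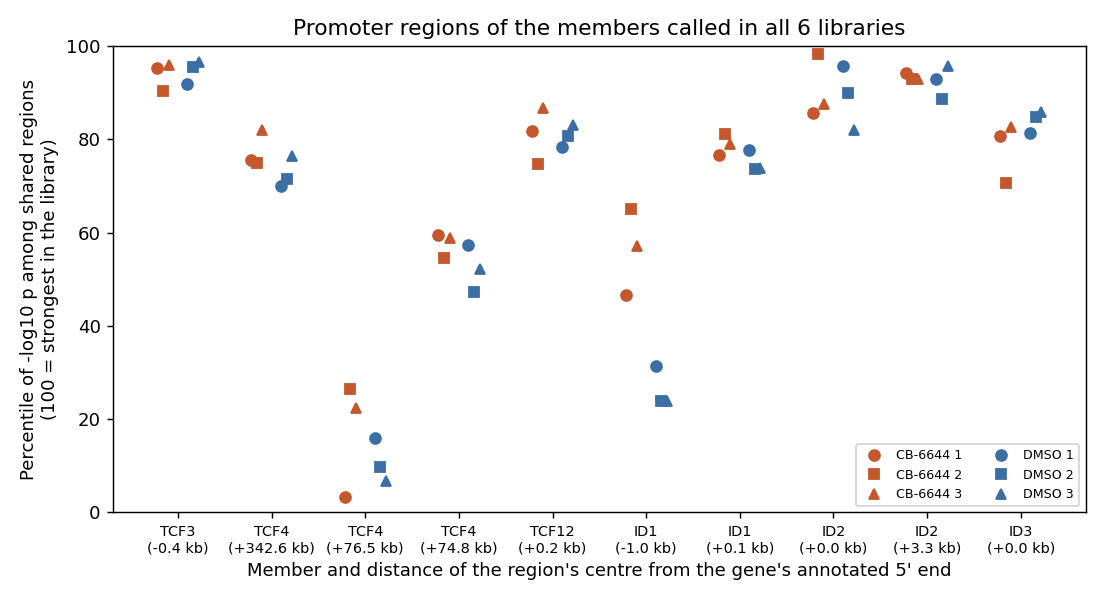
Percentile of −log10 p among regions called in all 6 libraries (y axis, no unit) for the 10 promoter regions of the members called in all 6, with 1 point per library, CB-6644 in orange and DMSO in blue, and the distance from the gene's annotated 5′ end under each name. The groups overlap at 9 of the regions, and at the ID1 region 1.0 kb upstream all 3 CB-6644 points sit above all 3 DMSO points.

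Among the E proteins, the TCF3 promoter (chr19:1652505-1653440) was at percentiles 95.2, 90.3 and 95.8 with CB-6644 and 91.8, 95.4 and 96.6 with DMSO. The TCF12 promoter (chr15:56917968-56919662, which also covers the start of the gene ENSG00000285253) was at 81.8, 74.8 and 86.7 against 78.3, 80.7 and 83.1. The groups overlapped at both, with score differences of −0.068 ± 0.156 (SE, limma adjusted p = 0.855) and 0.027 ± 0.135 (limma adjusted p = 0.942). TCF3 had 5 clusters of coding starts and TCF12 had 4, and at each gene 1 cluster had a peak in all 6 libraries.

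TCF4 has many alternative first exons, and its 63 coding starts fell into 16 clusters. No peak was called at 11 of the 16 clusters in any library, and 3 had one in all 6. The most 3′ of these, chr18:55321608-55322776, was the strongest, at 75.6, 74.8 and 81.9 with CB-6644 against 70.0, 71.6 and 76.5 with DMSO. The cluster at chr18:55589770-55590141 was at 59.4, 54.6 and 58.8 against 57.4, 47.2 and 52.2. The neighbouring region at chr18:55587999-55588652, which overlaps a cluster of 21 starts, was weak in every library, at 3.34, 26.4 and 22.3 against 16.0, 9.74 and 6.67. The groups overlapped at all 3, and the score differences were 0.15 ± 0.125, 0.13 ± 0.141 and 0.19 ± 0.337 (SE), with limma adjusted p of 0.543, 0.649 and 0.808.

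Of the inhibitors, ID2 had the strongest promoters. Its region at the gene's 5′ end, chr2:8678691-8678995, was at 85.5, 98.2 and 87.7 with CB-6644 and 95.8, 89.9 and 82.0 with DMSO. The region at its second start, chr2:8681814-8682387, was at 94.1, 92.8 and 92.8 against 93.0, 88.7 and 95.6. The score differences at ID2 were 0.14 ± 0.269 and 0.033 ± 0.139 (SE), with limma adjusted p of 0.83 and 0.927, and the groups overlapped at both.

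The ID3 promoter, chr1:23559192-23559717, was at 80.6, 70.5 and 82.5 with CB-6644 and at 81.4, 84.8 and 85.8 with DMSO, a score difference of −0.22 ± 0.133 (SE, limma adjusted p = 0.395). The ID1 promoter at the start site, chr20:31605053-31605693, was at 76.6, 81.1 and 78.9 against 77.7, 73.6 and 73.7, a difference of 0.13 ± 0.115 (SE, limma adjusted p = 0.591). Both pairs of groups overlapped.

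ID4 had no promoter peak in any of the 6 libraries. Its RefSeq promoter (GRCh38.p14, chr6:19837120-19837419) is rich in CpG, with 39 CpG and a GC content of 76.3%, against medians of 14 CpG and 58.7% over 35116 promoters. The window still held 1 region called in all 6 libraries, 32.3 kb upstream at chr6:19804436-19805118. It was at 79.9, 89.4 and 80.3 with CB-6644 and 80.4, 80.6 and 71.4 with DMSO, groups that overlapped, with a score difference of 0.22 ± 0.147 (SE, limma adjusted p = 0.443).

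In DMSO the promoters were ordered from TCF3 (mean percentile 94.6 ± 2.53, SD, n = 3) through ID2 (92.4 ± 3.51 and 89.2 ± 6.91), ID3 (84.0 ± 2.32), TCF12 (80.7 ± 2.41) and ID1 (75.0 ± 2.36) to TCF4 (72.7 ± 3.40, 52.3 ± 5.11 and 10.8 ± 4.73). These are ranks of peak significance, not transcript levels. Ranges of the 3 libraries overlapped between TCF3 and ID2, between the 5′ promoter of ID2 and both ID3 and TCF12, between ID3 and TCF12, and between ID1 and the strongest TCF4 promoter. They did not overlap between TCF12 and ID1, nor between the 3 TCF4 promoters.

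TCF12 was the member with DMSO-only regions, those called in all 3 DMSO and no CB-6644 library. It had 3, all in introns, and the other 6 windows had none. These 3 of the 79 member regions are 3.80%, close to the 4.5% of all merged regions that were DMSO-only. CB-6644-only regions numbered 0 in the 7 windows, against 0.586% of all regions. Lower accessibility in bulk cells does not tell fewer cells with an open site from fewer cuts per cell.

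The strongest of the 3 was chr15:57190309-57190611, 28.8 kb from the nearest TCF12 start. For regions not called in every library, the strength is the percentile of −log10 p within the library's own list, and here it was 41.5, 51.3 and 54.2 in DMSO replicates 1, 2 and 3. The fold enrichment given by the authors' peak caller was 15.2, 20.6 and 20.4. This was a mid-strength peak in every DMSO library, with no peak in any CB-6644 library.

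The others were weak. The region chr15:56950995-56951262 was at 3.84, 13.5 and 12.8 in DMSO, with folds of 6.32, 8.68 and 8.52. The region chr15:57245278-57245445, 2.57 kb from an internal TCF12 start that had no peak, was at 9.58, 7.60 and 5.6, with folds of 7.58, 7.31 and 6.73. Both were near the lower end of their lists.

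CB-6644 replicates 1 and 3 had the shortest lists and replicate 2 the lowest background, so the 3 regions were also counted in trimmed lists. With a −log10 q of at least 5, all 3 remained DMSO-only. In lists cut to their 58563 top peaks, only chr15:57190309-57190611 remained. It also remained when the 4 long-fragment libraries were thinned to equal background (0 of 2 against 2 of 2 libraries), and none of the 3 was DMSO-only among the 20000 top peaks. The other 2 regions had a −log10 p of at most 16.1 in DMSO replicates 2 and 3, already below the thinning cut of 20. Trimming and thinning only remove peaks, so no CB-6644 library could gain one. These counts say only which DMSO peaks stayed, and do not test the absence with CB-6644.

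TCF12 spans 380.7 kb. At least 3 DMSO-only regions were found in the windows of 0.869% of all genes, and of 10.9% of the 826 genes with a body of at least 300 kb. TCF4, with a body of 442.6 kb, had 0. Where a peak had to cover 50% of the region, TCF12 had 2 DMSO-only regions and TCF4 had 1.

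The TCF12 window held 6, 7 and 4 peaks with CB-6644 and 10, 8 and 9 with DMSO, which did not overlap. Its 3 DMSO-only introns each add at least 1 peak to every DMSO library and none with CB-6644. The TCF12 counts in this paragraph therefore partly restate those regions and are not a separate result. The difference of −3.33 peaks had an exact permutation p of 0.1 (two-sided), the smallest that 3 against 3 libraries can give, and 0.35 after adjustment over the 7 members. ID2 had 3, 3 and 2 against 4, 5 and 4 peaks, a difference of −1.67 with the same exact p and adjusted p. For the other 5 members the groups overlapped, with exact p of 0.7 to 1. Over all members the windows held 59, 70 and 56 peaks against 68, 66 and 61 (difference −3.33, exact p = 0.6). Per 10000 peaks of the list that direction turned, to 9.93, 9.75 and 9.56 against 8.61, 9.28 and 9.30 (difference 0.686, exact p = 0.1), and single members went both ways. On that scale TCF12 (−0.365) and ID2 (−0.185) were lower and TCF3 (0.306) and ID1 (0.34) higher with CB-6644, each without overlap between the groups, with an exact permutation p of 0.1 and 0.175 after adjustment over the 7 members.

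**Figure D2:**
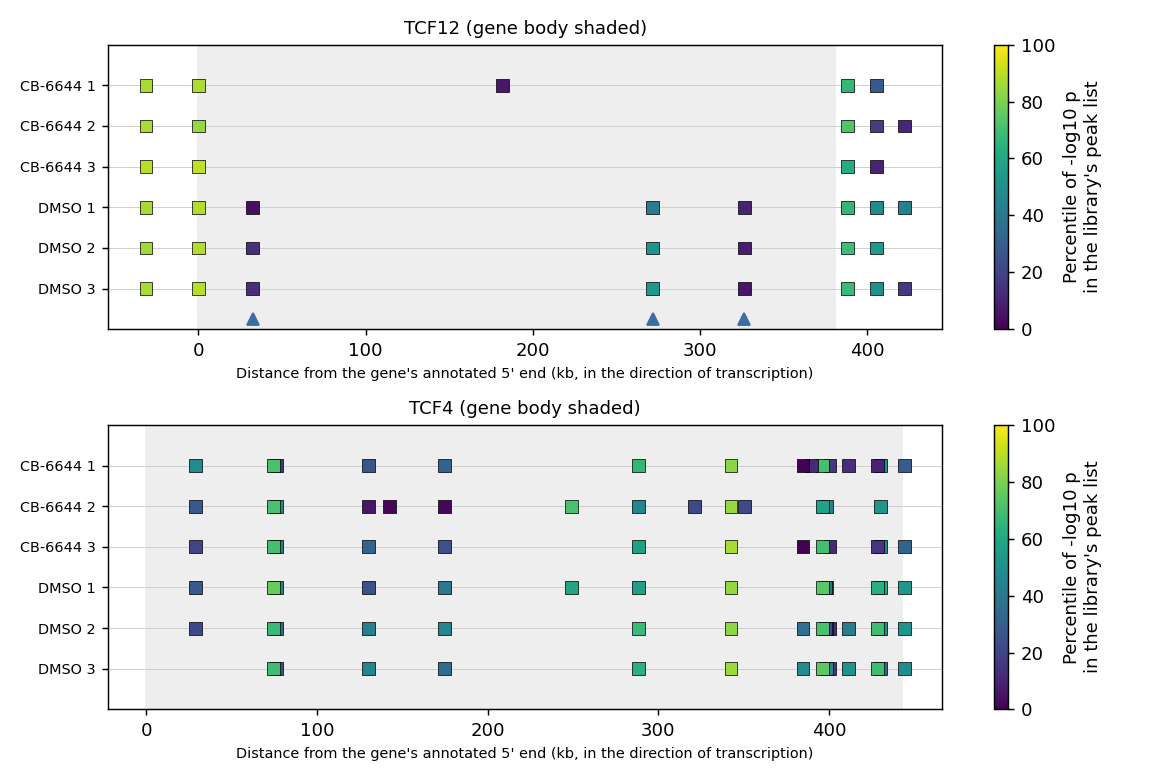
Peaks in the TCF12 and TCF4 windows by library (rows) against distance from the gene's annotated 5′ end in kb (x axis), coloured by the percentile of −log10 p in the library's own list, with the gene body shaded and DMSO-only regions marked by blue triangles. The 3 marked TCF12 introns have peaks in the 3 DMSO rows and in no CB-6644 row, and 4 TCF4 introns toward the 3′ end are called more strongly or in more libraries with DMSO.

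Another TCF12 region lay downstream of the gene, at chr15:57323987-57324659, and was called in all 6 libraries. It was at shared percentiles 10.5, 7.0 and 1.5 with CB-6644 and 17.2, 27.7 and 28.6 with DMSO, so every CB-6644 library ranked below every DMSO library. The score difference was −0.93 ± 0.293 (SE), which did not pass the test (limma adjusted p = 0.0846). In the 4 long-fragment libraries alone it was −0.94 ± 0.273 (SE, limma adjusted p = 0.019). The highest difference was 30.8 kb upstream of the gene at chr15:56886856-56887824, at 81.5, 78.1 and 85.7 with CB-6644 and 75.4, 76.8 and 79.7 with DMSO, where the groups overlapped (0.16 ± 0.121, SE, limma adjusted p = 0.498).

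TCF4 had no group-only region, and its introns differed among themselves. The region chr18:55236197-55236547, toward the 3′ end of the gene, was at list percentiles 9.59 and 14.8 in CB-6644 replicates 1 and 3 and had no peak in replicate 2, whereas the DMSO libraries were at 63.4, 69.4 and 68.5. Its folds were 6.88 and 7.72 with CB-6644 and 17.7, 17.1 and 15.3 with DMSO. A weak or missing peak with CB-6644 thus stood against a strong one in every DMSO library. Without a value in CB-6644 replicate 2 the region is not in the test of all 6 libraries. Leaving that library out, the score difference was −1.73 ± 0.23 (SE, limma adjusted p = 0.000407). In the 4 long-fragment libraries it was −1.78 ± 0.236 (SE, limma adjusted p = 1.86e-05), where 8.91% of 47854 regions were called lower and 7.62% higher.

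A second TCF4 intron, chr18:55279847-55280252, had peaks at list percentiles 0.48 and 0.161 in CB-6644 replicates 1 and 3 and at 36.7 and 48.0 in DMSO replicates 2 and 3, with none in either short-fragment library. Its difference in the long-fragment libraries was −2.59 ± 0.42 (SE, limma adjusted p = 0.00015). The intron at chr18:55266006-55266333 was called in 1 of 3 CB-6644 libraries (44.8, replicate 2) and in all 3 DMSO libraries (56.1, 39.2 and 45.1). The intron at chr18:55253032-55253474 was called in CB-6644 replicate 1 (12.7) and in DMSO replicates 2 and 3 (42.1 and 51.7). After thinning the long-fragment libraries to equal background, with the −log10 p cut of 20, these 4 introns were called in both DMSO libraries and in neither CB-6644 library. Their peaks in CB-6644 replicates 1 and 3 had a −log10 p of at most 17.9 before thinning, already below the cut. The thinned lists therefore could not have called them with CB-6644, and say only that the DMSO peaks stayed. These introns were picked out after their values were seen.

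Over its whole window, the TCF4 regions did not follow 1 direction. Of its 13 regions called in some but not all libraries, the introns above included, 5 had more DMSO than CB-6644 libraries. Another 5 had more CB-6644 libraries and the rest had as many of each. The 5 with more CB-6644 libraries included 4 regions called in 1 library only, mostly in CB-6644 replicate 2, a short-fragment library. Over all 42568 regions called in some libraries and not group-only, 58.7% had more DMSO libraries and 25.6% more CB-6644 libraries. Its 8 shared regions had 3 negative and 5 positive differences, from −0.61 ± 0.363 (chr18:55489701-55489971, limma adjusted p = 0.383) to 0.33 ± 0.226 (chr18:55234740-55234958, limma adjusted p = 0.462). None of the 8 passed. The last of these lies beside the intron at chr18:55236197-55236547 and had a positive difference, with percentiles of 36.1, 31.8 and 27.9 with CB-6644 and 32.2, 22.1 and 12.3 with DMSO.

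TCF3 showed no called difference. Some of its 8 shared regions lay at promoters of the neighbouring genes MEX3D, MBD3 and UQCR11. The 8 had 4 negative and 4 positive differences with a median of 0.013. The lowest was an intron 1.55 kb from a TCF3 start, chr19:1648595-1649190, at 1.43, 7.95 and 3.93 with CB-6644 against 4.26, 13.7 and 15.8 with DMSO (−0.51 ± 0.322, SE, limma adjusted p = 0.408). The highest lay in a promoter of the neighbouring gene MBD3, chr19:1592059-1592686, at 72.5, 90.0 and 78.3 against 82.8, 74.4 and 44.9 (0.40 ± 0.255, SE, limma adjusted p = 0.421). The groups overlapped at both.

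Over the 42 shared regions of the 7 windows, 16 differences were negative and 26 positive. Their median was 0.096, beside 0.0065 over all 42089 regions. Lower calls numbered 0 of 42 against 3.74% of all regions (1575 of 42089), and higher calls 3 of 42 against 3.48%. All 3 were in ID windows, 2 at ID1 and 1 at ID3. In 2 of the 42 regions every CB-6644 library ranked below every DMSO library and in 5 every one ranked above, against 13.4% and 13.3% of all shared regions, so full separation was no more frequent at the members than elsewhere.

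**Figure D3:**
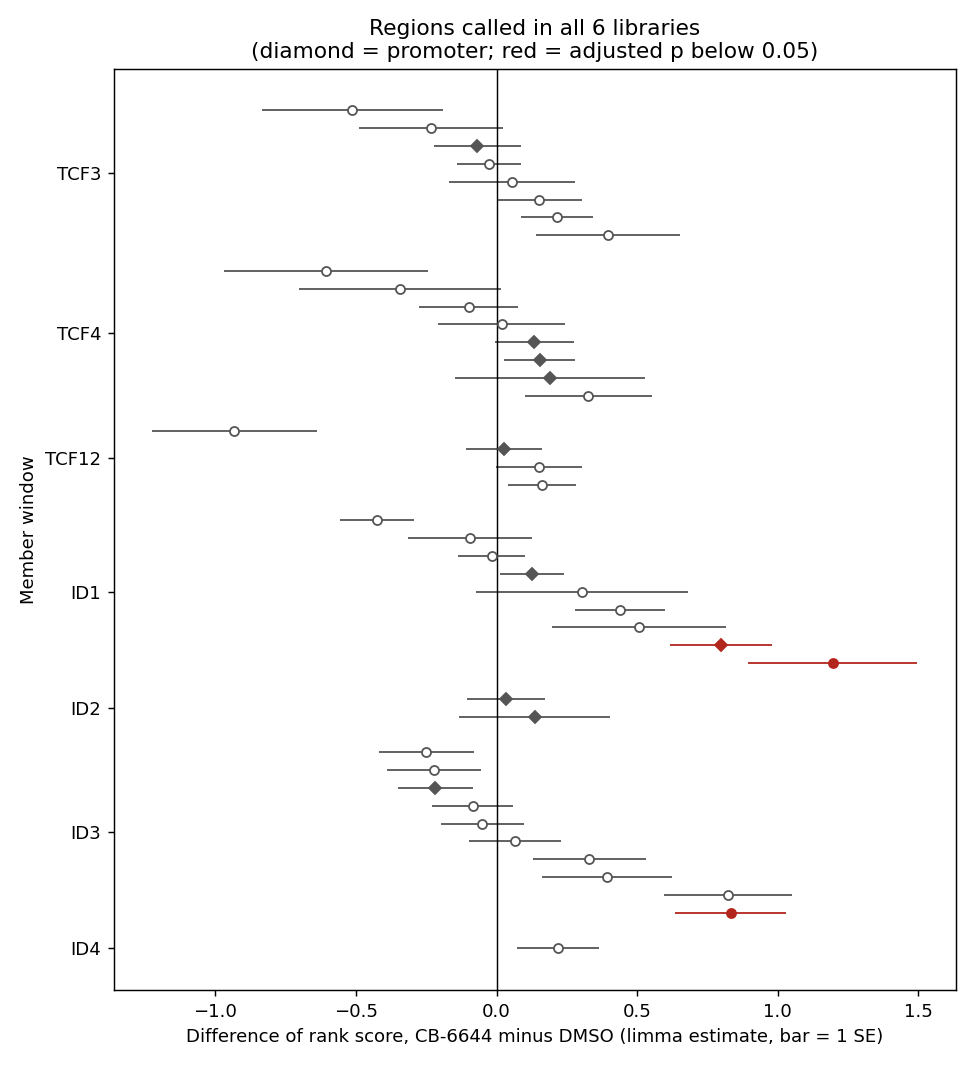
Difference of rank score, CB-6644 minus DMSO (x axis, in standard deviations of ranks, limma estimate with 1 SE), for the 42 regions called in all 6 libraries, grouped by member (y axis), with promoters as diamonds and regions with adjusted p below 0.05 in red. The 3 red points, 2 at ID1 and 1 at ID3, lie between 0.80 and 1.19.

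The ID1 region upstream of the start, chr20:31604151-31604476, ranked higher with CB-6644. It ends 0.807 kb before the ID1 start. Its shared percentiles were 46.7, 65.1 and 57.1 with CB-6644 (mean 56.3 ± 9.24, SD, n = 3) and 31.5, 23.8 and 23.8 with DMSO (26.3 ± 4.44), so the groups did not overlap. The score difference was 0.80 ± 0.182 (SE, limma adjusted p = 0.0257). The core promoter next to it did not pass, as given above. The folds of the upstream region were 10.2, 17.8 and 11.1 against 10.5, 7.74 and 7.20, which overlapped, and with fold in place of −log10 p the difference was 0.82 ± 0.309 (SE, limma adjusted p = 0.25).

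The second called region of the ID1 window was chr20:31653656-31654024, 48.4 kb from the ID1 start. This region was nearer to the start of another gene, COX4I2, at 15.7 kb, and held 2 CAGGTG E-boxes. It was among the weakest shared regions in DMSO, at 2.98, 1.98 and 0.435, and stood at 12.4, 20.6 and 15.7 with CB-6644. The score difference was 1.19 ± 0.301 (SE, limma adjusted p = 0.0381). The groups did not overlap in percentile, nor in fold, which was 12.8, 11.5 and 14.2 against 10.1, 9.59 and 6.73 (difference of the fold score 0.86, limma adjusted p = 0.112).

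The ID3 region, chr1:23525853-23526054, lay 33.4 kb downstream of ID3 in the body of E2F2, a cell-cycle transcription factor gene, and held 1 E-box of each form. Its percentiles were 59.9, 78.8 and 59.7 with CB-6644 and 44.5, 33.4 and 26.3 with DMSO, without overlap. The score difference was 0.83 ± 0.197 (SE, limma adjusted p = 0.0299). Its folds were 8.03, 18.2 and 7.82 against 8.39, 5.63 and 4.57, which overlapped, and the call was lost with fold in place of −log10 p (limma adjusted p = 0.263) and where a peak had to cover 50% of the region (limma adjusted p = 0.0553). A region upstream of ID3, chr1:23593479-23593987, had percentiles of a like order, 53.2, 75.5 and 53.6 against 44.4, 26.7 and 19.9, and did not pass (0.82 ± 0.229, SE, limma adjusted p = 0.0554). It held 2 CAGGTG E-boxes.

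CB-6644 replicate 2, a short-fragment library, was the highest CB-6644 library at all 4 of these regions, and DMSO replicate 1, the other short-fragment library, was the highest DMSO library. The 3 calls were therefore also read in the long-fragment libraries alone, where the differences were 0.72 ± 0.173, 1.23 ± 0.332 and 0.74 ± 0.157 (SE), with limma adjusted p of 0.00515, 0.0119 and 0.00199. With the fragment-length set as a term in the test of all 6 libraries, 10.2% of regions were called lower and 9.12% higher, and at the members 2 were called lower and 6 higher, the 3 regions among the latter. With 1 library left out at a time, the adjusted p of the ID1 upstream region ran from 0.0313 to 0.131, that of the ID1 downstream region from 0.0524 to 0.169, and that of the ID3 region from 0.0325 to 0.131. The ID1 upstream call was lost without CB-6644 replicate 3 (0.0874), DMSO replicate 2 (0.131) or DMSO replicate 3 (0.104). The ID1 downstream call was lost whichever of the 6 libraries was left out, and the ID3 call without CB-6644 replicate 1 (0.0511), CB-6644 replicate 3 (0.0588), DMSO replicate 2 (0.131) or DMSO replicate 3 (0.126).

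**Figure D4:**
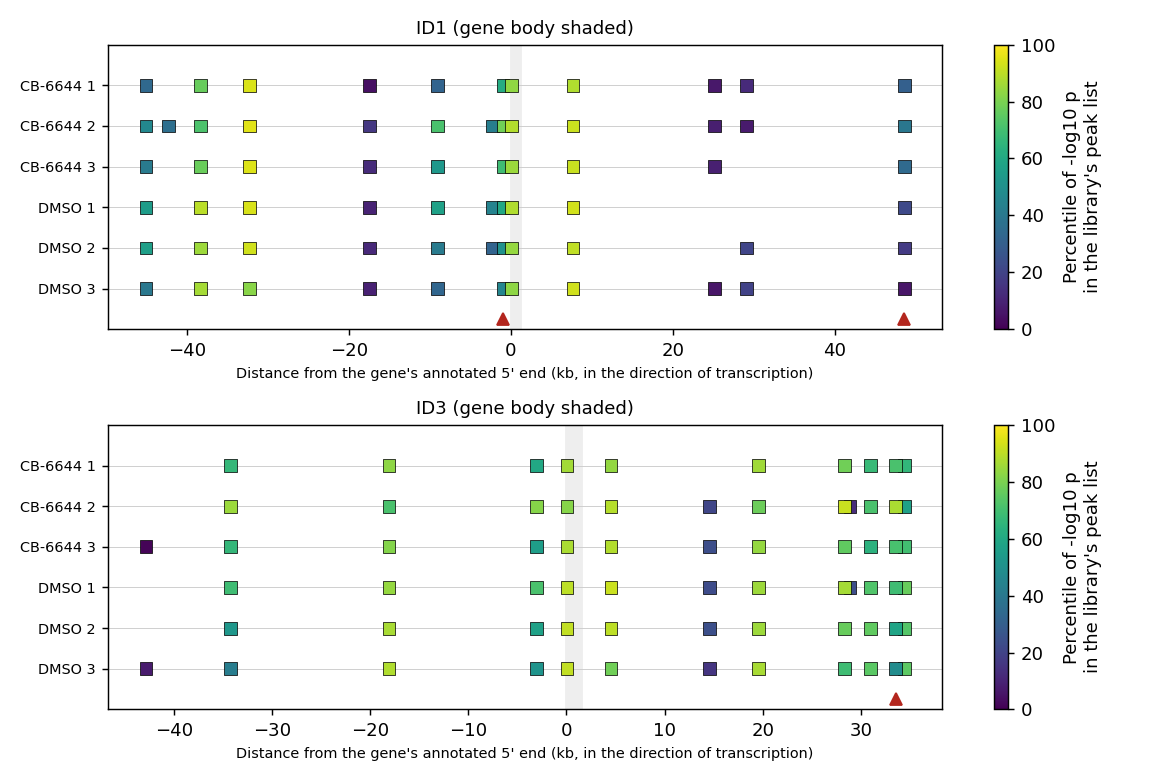
Peaks in the ID1 and ID3 windows by library (rows) against distance from the gene's annotated 5′ end in kb (x axis), coloured by the percentile of −log10 p in the library's own list, with the gene body shaded and regions with adjusted p below 0.05 marked by red triangles. Most regions appear in all 6 rows (9 of 13 for ID1 and 10 of 13 for ID3), and the marked ones are brighter in the CB-6644 rows.

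ID1 also had regions that differed without passing. Inside the neighbouring gene HM13, chr20:31566517-31567396 was at 67.5, 56.1 and 68.1 with CB-6644 and 80.6, 75.3 and 79.0 with DMSO (−0.43 ± 0.133, SE, limma adjusted p = 0.0827). In the same gene, chr20:31572559-31573577 was at 92.0, 92.4 and 92.5 against 88.6, 87.8 and 72.2 (0.44 ± 0.16, SE, limma adjusted p = 0.134). The groups did not overlap at either, and the directions were opposite within 1 gene.

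In the ID3 window the lowest difference was at chr1:23577387-23577774, 17.9 kb upstream, at 75.9, 55.1 and 74.3 with CB-6644 and 71.0, 78.2 and 81.6 with DMSO (−0.25 ± 0.169, SE, limma adjusted p = 0.449). The 10 shared ID3 regions had 5 negative and 5 positive differences, with a median of 0.0072. ID2 had 2 shared regions, its promoters. Of its 4 other regions, 3 were called in more DMSO than CB-6644 libraries and none in more CB-6644 libraries, beside the shares over all regions given with TCF4. One of these, chr2:8681054-8681605 in its promoter, was called in DMSO replicates 2 and 3 only, at list percentiles of 20.5 and 29.9.

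The E-box letters were counted within 100 bp of the strongest summit, on both strands. CAGGTG was in 21 of the 79 member regions (26.6%), beside 27.7% of all regions, and CAGCTG in 14 (17.7%), beside 16.7%. The members differed in this: CAGGTG was in 8 of 13 ID3 regions, 5 of 13 ID1 regions and 3 of 6 ID2 regions, in 3 of 14 at TCF3, 1 of 21 at TCF4 and 1 of 9 at TCF12, and in none of the 3 at ID4. In the RefSeq promoters all 7 members were matched and none held CAGGTG, which 20.6% of all promoters hold. CAGCTG was in a promoter of ID2 and in that of ID4, beside 17.9% of all promoters. Across the whole series, CAGGTG was in 41.5% of the 523 CB-6644-only regions and 22.4% of the 4016 DMSO-only regions. CAGCTG was in 31.0% and 10.7% of them, so these letters were not particular to the members. A match of letters is not a measure of binding.

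Other genes of the same network were counted from 4 lists, and no promoter of theirs passed the limma test in either direction. Of 13 bHLH partners of E proteins, 5 promoters had a peak in all 6 libraries and 8 had none. Their 66 window regions included 1 that was DMSO-only, at BHLHA15, a factor of secretory cells. All 9 cofactors had promoter peaks in all 6 libraries. Their 83 regions included 3 DMSO-only, 1 each at CREBBP and KAT2B, which encode acetyltransferases, and at CBFA2T3, a corepressor, and 1 CB-6644-only at LMO2, an adaptor that joins bHLH complexes.

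Of 12 B-lineage genes bound by E proteins, 8 promoters had a peak in all 6 libraries, and their 125 regions included 4 DMSO-only, 2 at the B-cell receptor gene CD79A and 1 each at EBF1, an early B-cell factor, and POU2AF1, a B-cell coactivator. Of 9 BMP and SMAD genes, 8 promoters had a peak in all 6 libraries, and their 80 regions included 4 DMSO-only. These were 1 each at BMPR1A and ACVRL1, which encode receptors, at SMAD1, which carries the signal to ID genes, and at SMAD6, an inhibitor. The counts of DMSO-only regions in the 4 lists are read beside the 4.5% of all regions. Promoter differences of the named genes that were tested ran from −0.11 ± 0.145 (SE) at BHLHA15 to 0.29 ± 0.144 at KAT2B, the latter with a limma adjusted p of 0.286. CD79A had a promoter peak in 1 library, and ACVRL1 in none.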

How the data were processed

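The 6 Omni-ATAC libraries were 3 of CB-6644 and 3 of DMSO, by the labels. Per the submitters' processing notes, the authors used Bowtie2 2.4.2 for alignment to hg38 and MACS3 3.0 for peaks, library by library. The deposited lists give each peak's fold (ratio of pile-up to local background), its −log10 p and its −log10 q, not scaled between libraries. The lists hold no reads, so the study's edgeR test on counts was not repeated.

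Peaks on the 24 main chromosomes were merged where they overlapped by 1 bp. Promoters and windows came from GENCODE release 44. Regions called in all 6 libraries were tested with limma 3.58.1 (R 4.3.3, eBayes with trend) on normal scores of the within-library rank of −log10 p, with Benjamini-Hochberg adjustment and a threshold of 0.05. Peaks per window were compared by exact two-sided permutation. Pile-up and background were solved from fold and −log10 p under a Poisson model, which matched at least 99.98% of peaks within 1%. That short peaks mark short fragments is an inference from the lists. Depth in reads is unknown. Tables and figures used Python 3.11.15 with pandas 2.3.3, scipy 1.17.1, matplotlib 3.10.9 and numpy 2.4.6. The test was tested on simulated data.

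The members, lists and tests were chosen with earlier results of these data known. All 7 members were named, with the promoter regions called in all 6 libraries, every group-only region, and the shared region with the lowest and the highest difference in each window. Listed network genes were named for a group-only region or a called promoter. Results were recomputed with changes to the peak threshold, list length, overlap, windows, measure, covariates and libraries.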

Additional observations from a re-analysis of the deposited data

How the results depend on the processing

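Without read counts, ranks of peaks and presence in a list were the only measures, and weak regions depend on how long each list is. DMSO-only regions in the member windows, 3 as reported, were 0 among the 20000 top peaks, 1 in lists of equal length and 6 when 2 of 3 libraries sufficed. In the long-fragment libraries they were 6 without thinning (1 at TCF4, 3 at TCF12 and 2 at ID2). With thinning they were also 6, but largely other regions (1 at TCF3, 4 at TCF4 and 1 at TCF12). At the TCF3 region, CB-6644 replicates 1 and 3 had a −log10 p of 13.9 and 19.3 before thinning, already below the cut of 20. As at the TCF4 introns, the thinned lists could not have called it with CB-6644. With 1 library left out they were 3 to 5 (5 without DMSO replicate 1). CB-6644-only regions, 0 as reported, were 2 among the 20000 top peaks (both in the ID3 window), 1 in lists of equal length and 1 after thinning (the ID1 downstream region in both), and 0 to 1 with 1 library left out (1 without DMSO replicate 3). At the ID1 downstream region, DMSO replicates 2 and 3 had a −log10 p of 18.6 and 11.3 before thinning, below the cut of 20. The thinned lists therefore could not have called it with DMSO, and say only that its CB-6644 peaks stayed. Shared regions called lower, 0 as reported, were 2 with the fragment-length set as a term and 3 in the long-fragment libraries, and 0 to 1 with 1 library left out (1 without CB-6644 replicate 2, the TCF4 intron). Shared regions called higher, 3 as reported, were 0 by fold enrichment, 6 with the fragment-length set, 5 in the long-fragment libraries, 1 where a peak had to cover 50% of the region and 0 within gene bodies alone, and ran from 0 to 3 with 1 library left out (1 without CB-6644 replicate 1 and 0 without CB-6644 replicate 3, DMSO replicate 2 or DMSO replicate 3).

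With a block by replicate number, 0 shared regions were called higher and 0 lower, and the adjusted p of the 3 regions became 0.068, 0.0764 and 0.0503 (limma). The labels do not say whether same-numbered libraries were paired. Deviations of same-numbered libraries correlated at −0.384, −0.147 and 0.253 across regions, and not every library correlated best with its own number. The highest correlation, 0.483, was between CB-6644 replicate 2 and DMSO replicate 1, the short-fragment libraries. These correlations therefore cannot decide whether the numbers mark a pairing. The block changed no other call.

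Directions turned under some settings for results that were not called. The TCF3 promoter difference was 0.199 by fold, and −0.19 to 0.065 with 1 library left out. That of TCF12 ran from −0.081 to 0.137 and that of ID2 from −0.094 to 0.155. Differences in peaks per window turned to 0.273 per 10000 peaks and 0.333 among the 20000 top peaks for TCF4, to 0.333 among the 20000 top peaks for TCF12 and to −0.5 in the long-fragment libraries for ID1. With 1 library left out they ran from −0.667 to 1.83 for TCF3, from −1.5 to 1 for TCF4 and from −0.167 to 1.83 for ID1. Over all members the difference turned to 0.686 per 10000 peaks (exact p = 0.1) and to 3.33 among the 20000 top peaks (exact p = 0.1). The causes were not tested. Over all results and alternatives, 200 values were classed as kept, 23 counts as moved and 18 differences as turned in direction. Kept does not mean unchanged. For example, 4 DMSO-only regions without CB-6644 replicate 2, against 3 as reported, were classed as kept. So was an all-member peak difference of −0.5 without CB-6644 replicate 3, against −3.33.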
